A study of Zea mays with 229 samples.

Results

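The 8 genes described here are bx1 to bx8 of the maize benzoxazinoid pathway, taken by their identifiers from the target column of the authors' deposited table of regulator and target pairs. The table listed 7 of the 8 among its 19787 genes, and bx1 (Zm00001d048709) was not among them. The others were bx2 (Zm00001d048710), bx3 (Zm00001d048702), bx4 (Zm00001d048703), bx5 (Zm00001d048705), bx6 (Zm00001d048634), bx7 (Zm00001d049179) and bx8 (Zm00001d048707).

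The data came from the TARGET assay in leaf protoplasts, cells freed of their walls, of the maize inbred line B73. The seedlings had been kept in the dark, so the leaves were etiolated. Protoplasts received the p1107 plasmid either empty or carrying 1 of 23 transcription factors, were handled with or without nitrogen, were sorted for red fluorescence and were read by 3' messenger RNA sequencing. The labels give 229 libraries, 77 with the empty vector and 152 with a factor, in groups of 2 to 4 per plasmid, nitrogen condition and batch.

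A pair of a regulator and a target, called a listing below, names a gene that the authors reported as responding to that factor. The table gives no direction, size, p-value, nitrogen condition or level, so a listed gene may have risen or fallen. No error can be put on a listing, the depth behind it is unknown, and no difference between genes was tested. A gene that was not listed may have been unchanged, below the thresholds or not detected, and these cannot be told apart here. The leaf label could not be checked against marker levels. For 20 of the 23 regulators a sample title carries the identifier and so gives the plasmid's name. The other 3, Zm00001d003176, Zm00001d032024 and Zm00001d033859, are called by identifier. The plasmids ZmMYB38, KN1 and NLP3 have titles without an identifier and were not assigned to them, so statements on a factor family cover matched regulators alone.

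Benzoxazinoids are defence compounds of maize and related grasses. They are made from indole, stored in the leaf as glucosides and freed by glucosidases when tissue is damaged. BX1 splits indole-3-glycerol phosphate to free indole, and the cytochrome P450 enzymes BX2, BX3, BX4 and BX5 oxidise indole step by step to DIBOA. BX8 attaches glucose to DIBOA, the dioxygenase BX6 hydroxylates the glucoside, and the O-methyltransferase BX7 methylates it to DIMBOA glucoside. The genes for the first steps are a textbook case of a plant biosynthetic gene cluster. In the reference gene table of assembly Zm-B73-REFERENCE-NAM-5.0 all 8 names were found on chromosome 4, in the order bx6, bx3, bx4, bx5, bx8, bx1, bx2, bx7, which is also the order of their identifier numbers. No reference gene lay between bx5 and bx8 or between bx1 and bx2. A single one lay between bx3 and bx4, between bx4 and bx5 and between bx8 and bx1. The genes bx6 and bx7 stood apart, with 65 reference genes between bx6 and bx3 and 428 between bx2 and bx7. Below, the 6 genes from bx3 to bx2 are called the clustered genes.

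The 8 genes were listed unevenly, from no regulator for bx1, the gene of the first step, to 16 for bx7. The step of bx7 is the last among these 8 genes, and further pathway genes were not analysed. Together the 8 genes had 48 of 184 possible listings (26.1%), where 20.3% of all possible listings of the table's genes were made. Of the 48 listings 16 belonged to bx7. That background covers genes listed at least once, which bx1 was not, and the 7 listed genes alone had 29.8%. Without bx7 the other 6 listed genes had 32 of 138 (23.2%), and 19.9% with bx1 counted. The median over the 8 genes was 6 regulators, with bx1 counted at 0, and the median over the 19787 listed genes was 3 regulators. The mean was 6 for the 8 genes and 4.67 for all listed genes. By steps, bx1 and bx2 had 1 of 46 possible listings (2.17%). The P450 genes of the following steps, bx3, bx4 and bx5, had 17 of 69 (24.6%). The genes that glucosylate, hydroxylate and methylate, bx8, bx6 and bx7, had 30 of 69 (43.5%). Of these 30, 16 belonged to bx7, while bx8 had 9 and bx6 had 5. As bx3 and bx5 had 7 each, the counts did not rise steadily along the pathway.

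**Figure D1:**
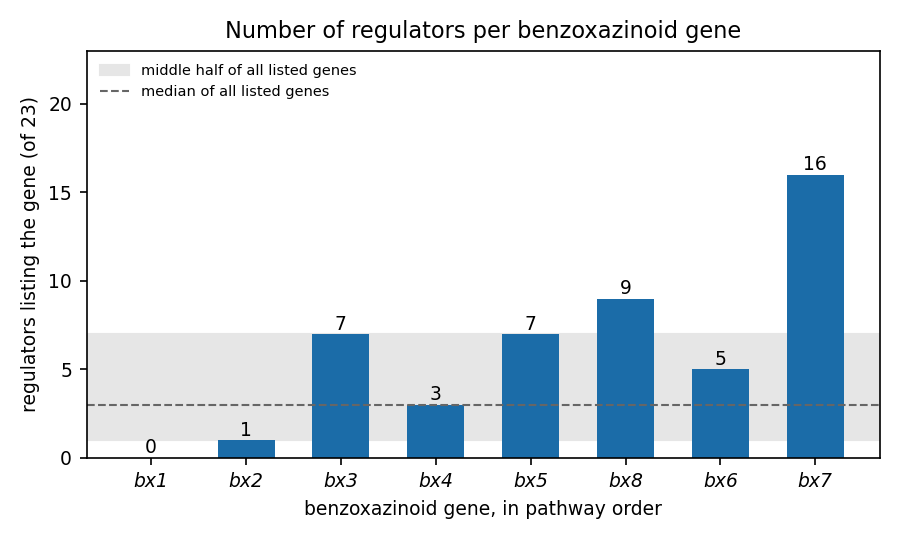
Number of the 23 regulators that listed each gene in the authors' deposited table (bars, vertical axis), with the genes in pathway order on the horizontal axis. The grey band runs from the lower to the upper quartile of all 19787 listed genes (1 to 7 regulators) and the dashed line is their median of 3. The bar of bx7 stands at 16, above the band, and bx1 has none.

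The entry of the pathway was nearly absent from the lists. The indole-forming bx1 was listed for 0 of 23 regulators in the authors' deposited table. The P450 gene bx2, which takes the first oxidation step and is the direct neighbour of bx1, was listed for MYBR3 alone. MYBR3 listed 21.5% of all listed genes, and 22 regulators listed neither bx1 nor bx2. A count of 1 is the lower quartile of the 19787 listed genes, of which 14620 had at least 2 regulators. Of 70 other identifiers between bx6 and bx2, 33 were listed. A count as low as that of bx2, or no listing as for bx1, was thus not rare.

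Among the later P450 genes, bx3 and bx5 had 7 regulators each and bx4 had 3. In the authors' deposited table bx3 was listed for HB6, EREB115, bHLH47, Zm00001d032024, G2, NAC66 and WRKY36. The gene bx5 was listed for HB6, NAC61, bHLH47, Zm00001d032024, MYB121, WRKY107 and WRKY36. The gene bx4 was listed for HB6, Zm00001d032024 and WRKY107, which all listed bx5 as well. At least 7 regulators were reached by 25.6% of all listed genes and at least 3 by 57.5%, so counts of this size were common in the table. Of the 5 matched MYB factors none listed bx3 or bx4, and MYB121 alone listed bx5. The lists of these 5 held from 8.96% (MYB21) to 32.8% (MYB121) of all listed genes. Few or no listings of a given gene among them are therefore ordinary. The list of ZmMYB38 is not known, and Zm00001d032024, which listed all 3 genes, is unmatched. These P450 genes belong to 1 enzyme family, and the labels do not say how reads that match more than 1 of them were counted.

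The glucosyltransferase gene bx8 was listed for 9 regulators, a count reached by 17.6% of all listed genes. They were NAC5, NAC61, MYB34, MYB56, MYB81, GLK44, G2, Zm00001d003176 and Zm00001d032024. For G2, the Golden2 regulator of chloroplast development, bx8 was entered 2 times in the authors' deposited table, as were 1771 of the 5569 G2 targets. The listing of bx8 for Zm00001d003176 lies in a stretch of 1335 rows that all stand in the MYB56 list too, so it may not be separate from that of MYB56. Without that stretch bx8 had 8 regulators. A paralog, bx9, also encodes a glucosyltransferase of DIBOA, and the labels do not say whether reads were shared between bx8 and bx9.

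The dioxygenase gene bx6 was listed for NAC61, bHLH47, WRKY107, G2 and MYB34. A count of at least 5 regulators was reached by 37.1% of all listed genes. The methyltransferase gene bx7 was listed for 16 of 23 regulators in the authors' deposited table, a count that 510 genes (2.58%) reached or passed. They were the 5 matched MYB factors (MYB21, MYB34, MYB56, MYB81 and MYB121), MYBR3, both WRKY factors, bHLH47, GLK44, HB6, EREB115, bZIP9, NAC109, Zm00001d003176 and Zm00001d032024. The 7 that did not list bx7 were NAC5, NAC61, NAC66, bHLH92, Orphan42, G2 and Zm00001d033859, which leaves NAC109 as the 1 NAC factor of 4 with bx7. List length did not separate the regulators with and without bx7. Those with bx7 had lists of 658 to 8080 genes with a median of 3567, and those without had 663 to 8286 with a median of 4002. NAC109, with the shortest list of the table (3.33% of listed genes), had bx7 as its only benzoxazinoid gene.

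The listing of bx7 also moved with batch. All 4 factors of the batch of bHLH47, MYB81, MYB121 and WRKY36 listed bx7, as did all 3 of the batch of MYB34, MYBR3 and NAC109. Both factors of the batch of HB6 and bZIP9, both matched factors of the batch of GLK44 and MYB21, and MYB56 also listed it. In the batch of NAC5, NAC61, bHLH92 and WRKY107 only WRKY107 did, and in that of G2, EREB115 and Orphan42 only EREB115 did. NAC66, the 1 factor of its batch, did not list bx7, nor did G2, which also had a batch of its own. Factors of 1 batch share empty vector libraries if each was compared within its batch, which the labels do not state. The part of the batch in the result was not tested.

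**Figure D2:**
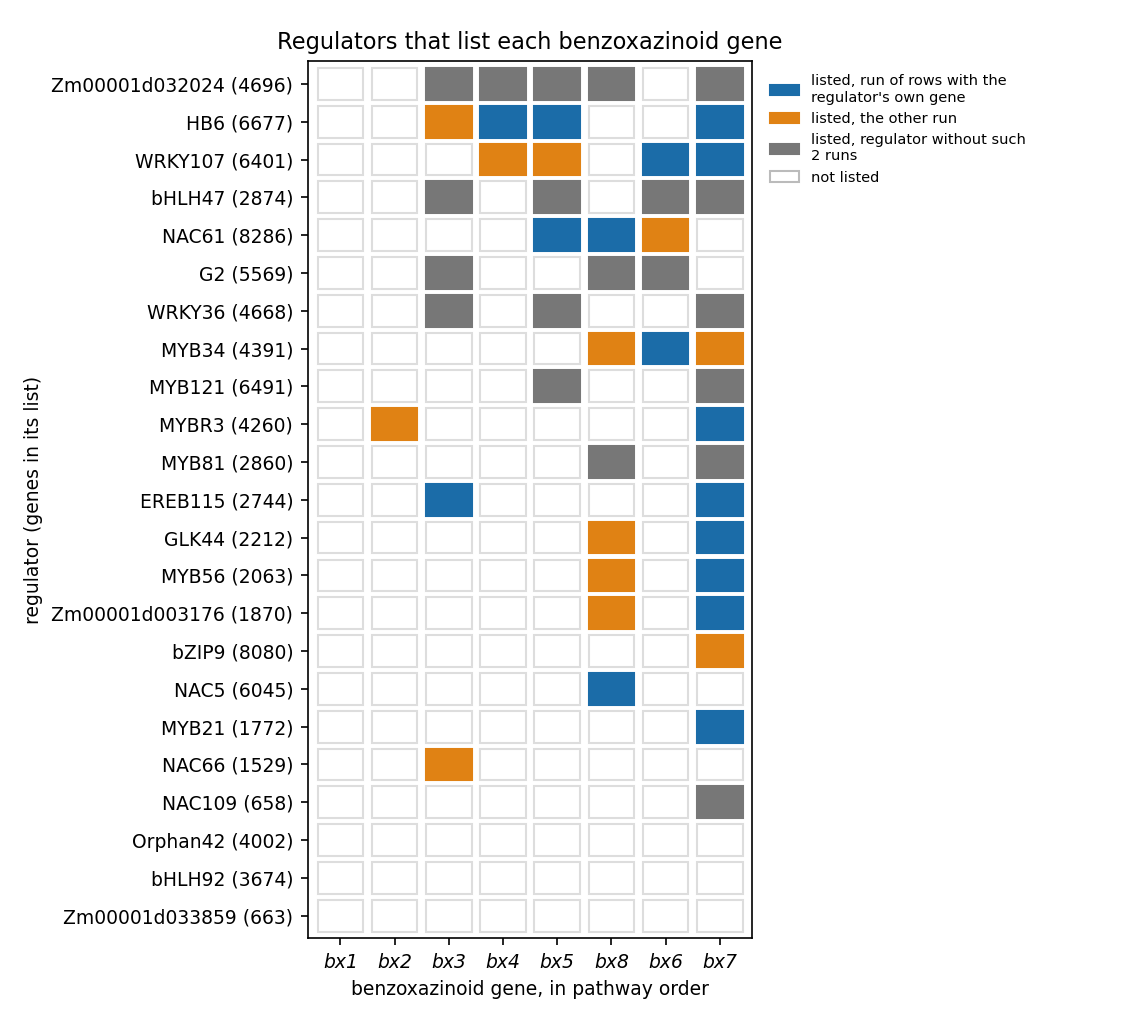
Each filled square is a listing in the authors' deposited table of the gene named on the horizontal axis, in pathway order, for the regulator on the vertical axis, whose list length in genes is in parentheses. Blue and orange tell apart, for regulators whose rows fall into 2 runs, the run that holds the regulator's own gene from the other run, and grey marks regulators without 2 runs. The bx7 column has 16 filled squares and the bx1 column has none.

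How many of the 8 genes each regulator listed was counted next. Zm00001d032024 listed 5, namely bx3, bx4, bx5, bx7 and bx8, from a list that held 23.7% of all listed genes. HB6 listed bx3, bx4, bx5 and bx7 from a list of 33.7%. WRKY107 listed bx4, bx5, bx6 and bx7 from one of 32.3%, and bHLH47 listed bx3, bx5, bx6 and bx7 from one of 14.5%. NAC61, G2, WRKY36 and MYB34 listed 3 genes each, with 41.9%, 28.1%, 23.6% and 22.2% of all listed genes in their lists. A further 7 regulators listed 2 genes. These were MYB121, MYBR3, MYB81, EREB115, GLK44, MYB56 and Zm00001d003176, whose lists held 32.8%, 21.5%, 14.5%, 13.9%, 11.2%, 10.4% and 9.45% in that order. A single gene was listed for bZIP9, NAC5, MYB21, NAC66 and NAC109, with 40.8%, 30.6%, 8.96%, 7.73% and 3.33%. Orphan42, bHLH92 and Zm00001d033859 listed none of the 8, with 20.2%, 18.6% and 3.35% of all listed genes in their lists. The 2 longest lists, those of NAC61 and bZIP9, thus held 3 of the genes and bx7 alone. Across the 23 regulators the number of benzoxazinoid genes and the list length had a Spearman rho of 0.47, given as a description because regulators share libraries and genes.

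**Figure D3:**
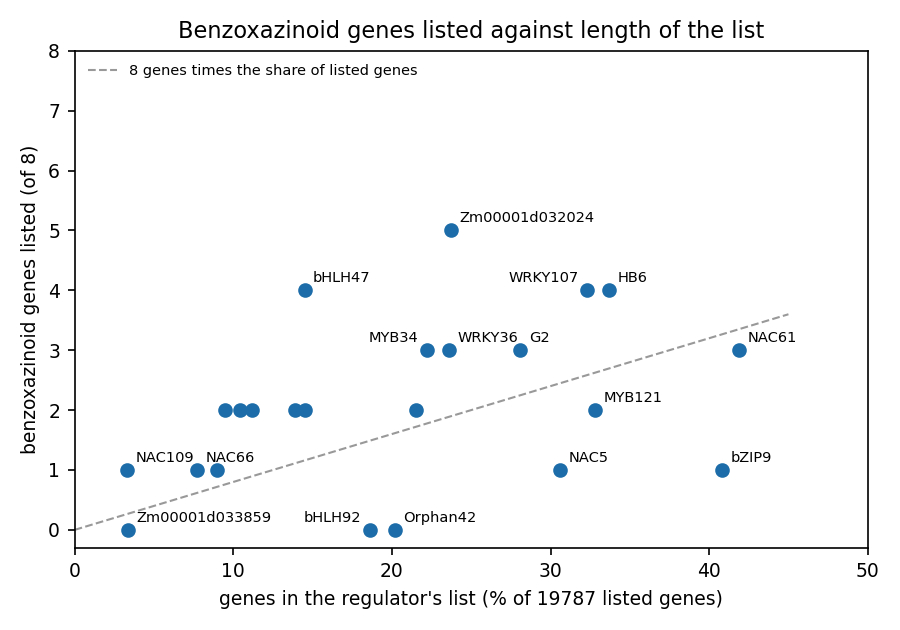
Each point is 1 of 23 regulators, with the length of its list as a percent of all 19787 listed genes on the horizontal axis and the number of the 8 benzoxazinoid genes it listed on the vertical axis. The dashed line marks 8 genes multiplied by the share of listed genes. bHLH47 lies above the line with 4 genes at 14.5%, and bZIP9 lies below it with 1 gene at 40.8%.

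Whether the clustered genes were listed together was then described. No regulator listed more than 4 of the 6 clustered genes. As bx1 had no regulator and bx2 had MYBR3 alone, 4 was the highest count possible for every other regulator. Together the clustered genes had 27 of 138 possible listings (19.6%), near the 20.3% of the whole table. Zm00001d032024 listed bx3, bx4, bx5 and bx8, and HB6 listed bx3, bx4 and bx5. WRKY107, bHLH47, NAC61, G2 and WRKY36 listed 2 clustered genes, 10 regulators listed 1 and 6 listed none. Of the 17 regulators with any clustered gene in the authors' deposited table, 10 thus had a single one.

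For a pair of genes the Jaccard index is the number of regulators that listed both, divided by the number that listed either. The highest index among the 8 genes was that of bx4 and bx5, with 3 shared of 7 regulators (0.429). It was followed by bx3 and bx5 with 4 of 10 (0.400), the shared ones being HB6, bHLH47, WRKY36 and Zm00001d032024. Of all other listed genes 2.4% were at least as alike to bx4 as bx5 was, and 7.02% were at least as alike to bx5 as bx4 was. For bx3 and bx5 these shares were 1.42% seen from bx3 and 9.41% seen from bx5. Both pairs were picked as the highest of 28, so low shares are favoured by the choice. For bx3 and bx4 the shares were 17.4% and 23.7%, and for bx4 and bx8 they were 56% and 70.8%. The neighbours bx5 and bx8 shared NAC61 and Zm00001d032024 among 14 (0.143), no more than bx3 and bx8 (0.143). For bx8, 43.5% of all other listed genes were at least as alike to it as bx5 was. The neighbours bx1 and bx2 shared none. Over the 15 pairs of clustered genes the mean index was 0.097 with bx1 at 0, and over the 10 pairs without bx1 it was 0.146. All pairs of listed genes had a mean of 0.136, and pairs of listed genes with consecutive identifiers had 0.167.

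Pairs that join a clustered gene with bx6 or bx7 had indices of up to 0.353. The index of bx5 and bx7 was 0.353 with 6 shared of 17 regulators, and that of bx8 and bx7 was 0.316 with 6 of 19. For bx5 and bx6 it was 0.333 with 3 of 9. All 3 regulators of bx4, 6 of the 7 of bx5 and 5 of the 7 of bx3 listed bx7 too. Of the 9 regulators of bx8, 6 listed bx7, and 3 of the 5 of bx6 did. Of all regulators 69.6% listed bx7, so most members of any set of regulators would be expected to list it. The counts for bx3, bx8 and bx6 were near that share. A gene with many regulators is shared more often by its count alone, and bx7 had a mean index of 0.174 with other listed genes.

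**Figure D4:**
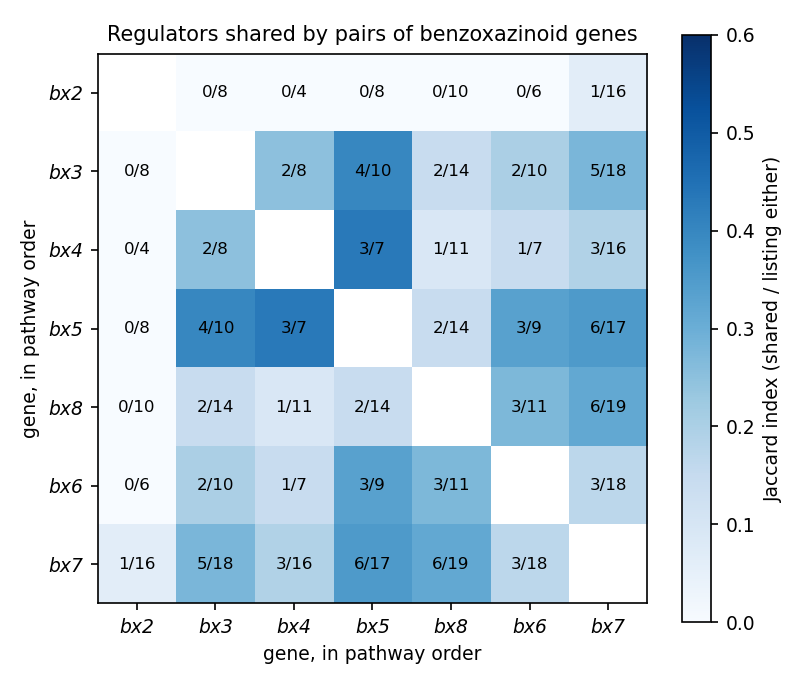
Jaccard index (colour) for each pair of the 7 listed benzoxazinoid genes, in pathway order on both axes, with the number of regulators that listed both over the number that listed either printed in each cell. The darkest cells join bx4 with bx5 (3/7) and bx3 with bx5 (4/10), and the bx2 row is empty except for 1 regulator shared with bx7.

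The rows of each regulator stand in the authors' deposited table in 1 to 4 unbroken runs. Neither the labels nor the header say what a run means. Of 16 regulators with 2 runs, 9 listed at least 2 of the 8 genes, which gave 23 pairs of genes under the same regulator. In 8 of these pairs (34.8%) both genes stood in the same run, where 57.6% of all pairs of targets of these regulators did, weighted by the number of gene pairs. The 23 pairs are not separate observations, since HB6 and WRKY107 gave 6 each from the same few genes. The pair of Zm00001d003176 may also not be separate from that of MYB56. The genes bx4 and bx5 stood in the same run for both HB6 and WRKY107. For HB6 bx7 stood with them, and bx3 stood in the other run. For WRKY107 bx6 and bx7 stood together in the run opposite to that of bx4 and bx5. The genes bx6 and bx8 were both listed for NAC61, MYB34 and G2, and never stood in the same run. The genes bx7 and bx8 stood in different runs for GLK44, MYB56 and Zm00001d003176, and in the same run for MYB34.

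For the 16 regulators with 2 runs, the regulator's own gene stood in 1 of them. Of the 10 of these regulators that listed bx7, 8 had it in the run of their own gene, namely MYB21, MYB56, MYBR3, GLK44, HB6, EREB115, WRKY107 and Zm00001d003176. MYB34 and bZIP9 had it in the other run. The same 10 lists had between 24.1% (HB6) and 92.9% (EREB115) of their genes in the own-gene run, so a gene spread like all targets would stand there for 4.33 of 10. For bx8 the own-gene run held it for NAC5 and NAC61 and the other run for MYB34, MYB56, GLK44 and Zm00001d003176. Spread like all targets, bx8 would stand in the own-gene run for 2.45 of 6, close to the 2 seen. A run is not read here as a direction of change.

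The clustered genes were next set beside the genes with neighbouring identifiers. Between bx6 and bx2 lay 70 identifiers of no benzoxazinoid gene, of which 33 were listed, with a median of 2 regulators. The most often listed of them was Zm00001d048693, with 18 regulators, followed by Zm00001d048683 with 11. The regulators of Zm00001d048693 included 12 of the 16 of bx7 and 6 of the 7 of bx5. A gene listed for 18 of 23 regulators shares many by its count alone, so these overlaps are not read as likeness. The stretch of 18 identifiers from Zm00001d048699 to Zm00001d048716 was bounded by the nearest other listed gene on either side. By that choice its 5 listed genes were all benzoxazinoid genes, namely bx2, bx3, bx4, bx5 and bx8. The 3 identifiers between bx3 and bx2 that belong to no benzoxazinoid gene were not listed. Around bx7, 11 of 20 identifiers within 10 on either side were listed. None had as many regulators as bx7, the highest being Zm00001d049186 with 10, of which 7 also listed bx7. Of all regulators 69.6% listed bx7, a like share. Among the identifiers around bx7 is Zm00001d049173, the gene of the regulator WRKY36. It was listed for 2 regulators, NAC61 and WRKY36 itself, the factor whose own gene it is. WRKY36 also listed bx7, and NAC61 did not.

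**Figure D5:**
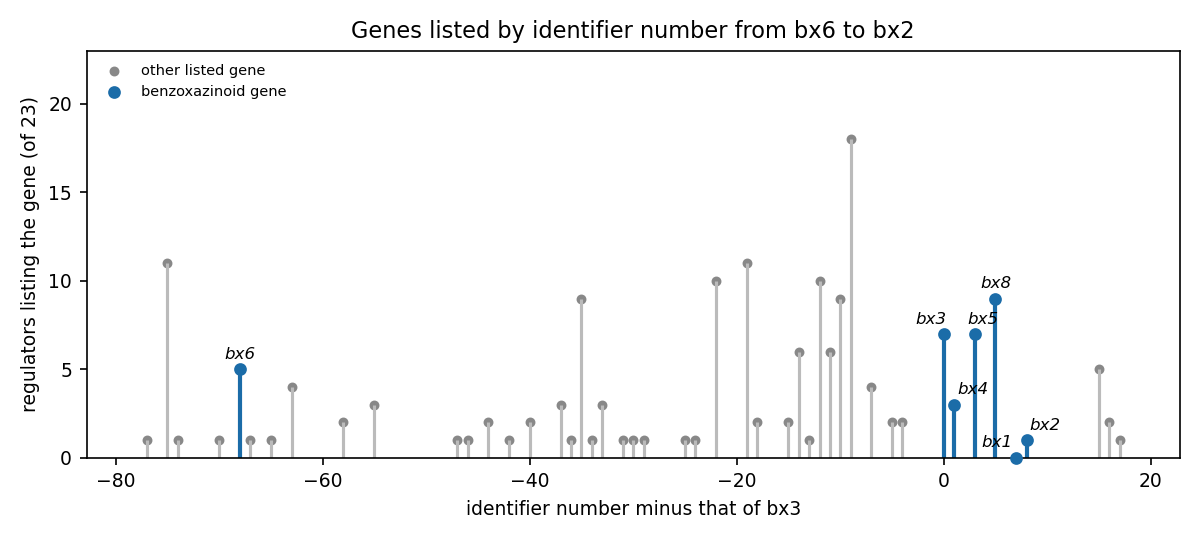
Number of regulators (vertical axis) that listed each gene in the authors' deposited table, placed on the horizontal axis by identifier number relative to that of bx3. Blue marks the benzoxazinoid genes from bx6 on the left to bx2 on the right and grey the other listed genes. The tallest grey line reaches 18, above the 9 of bx8, and no grey point lies among the clustered genes.

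Genes elsewhere whose regulators were most like those of the benzoxazinoid genes were found by the same index, among 11376 genes with at least 3 regulators. Zm00001d039686 shared all 7 regulators of bx5 and had 1 more (0.875). This is the top value of a search over 11376 genes. It cannot be set against the few indices between bx5 and other benzoxazinoid genes. Zm00001d007394, with 17 regulators, shared 15 of the 16 of bx7 (0.833). For bx4, with its 3 regulators, 7 genes had exactly the same ones. For the pair of regulators that listed at least 3 clustered genes, HB6 and Zm00001d032024, 68 genes were tied at the highest index of 0.667. No higher index was possible for 2 regulators against genes with at least 3, and genes listed for this pair alone were not compared. The tie therefore does not show whether the profile singles out any gene. The names bx9, bx13, bx14, igl1, glu1 and glu2 of further pathway or related genes are in the reference gene table, which does not pair them with identifiers of the edges. They were not analysed here.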

How the data were processed

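The authors deposited 1 table of 94256 rows, each with the identifier of a regulator, that of a target gene and a string of both. Its unit is none of the usual ones, since the deposited table holds text only, with no count or fold change. The build B73 RefGen_v4, edgeR and featureCounts were used per the submitters' processing notes. No source used here gives versions, thresholds, handling of nitrogen and batches, or depth per library. Distinct listings, 92485 in number, were used, and 1771 G2 listings had been entered 2 times. The 8 genes were found by identifier. For the background, a regulator's list was divided by the 19787 listed genes. Because genes that no regulator listed are not in that number, shares of all expressed genes would be lower. Runs are stretches of consecutive rows of 1 regulator. The reference gene table is of another assembly and served for names and gene order only, and no sequence was used. The overlap functions were tested on simulated data. No test was made, since no library has a value in the table. The genes, lists and alternatives were chosen with earlier results of these data known. Genes outside the pathway were named where they lay between the members by identifier or had the highest Jaccard index with a member or with the clustered genes; those around bx7 and those most like a single member were chosen after the values were seen. Python 3.11.15, numpy 2.4.6, pandas 2.3.3, scipy 1.17.1 and matplotlib 3.10.9 were used.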

Additional observations from a re-analysis of the deposited data

How the results depend on the processing

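The 48 listings of the 8 genes became 41 of 160 without the 3 regulators not matched to a plasmid, 47 without the longer run of Zm00001d003176, 46 with G2 counted only for genes listed 2 times, and 37 to 47 with the regulators of 1 of 9 batches left out in turn. Leaving out a batch also lowers the number of possible listings. In all 12 of these settings bx7 had the most regulators of the 8 genes (12 to 16), bx1 had none and bx2 at most 1. This was so by construction, since each setting only takes listings away and bx1 and bx2 could not rise. The largest batches held 4 regulators, too few to bring bx7 from 16 down to the 9 of bx8. The 2 regulators with at least 3 clustered genes became 1 when at least 4 were required and 0 with all 6, by construction, and remained 2 in number without the longer run of Zm00001d003176. The mean Jaccard index of the clustered genes, 0.097, was 0.065 without the 3 unmatched regulators, among which is Zm00001d032024. It was 0.081 to 0.123 with batches left out, 0.099 without the longer run of Zm00001d003176 and 0.098 with the stricter count of G2. The overlap coefficient, which divides by the smaller set of regulators, was 0.314 over 10 pairs without bx1, higher by construction. Among the 14620 genes with at least 2 regulators the mean was 5.97 regulators in place of 4.67. No paired analysis was possible because a listing carries no value for any library. The depth, which limits the listings that could be made, is unknown.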

Other observations

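The row of each gene within its run was read as well. Neither the labels nor the header say what orders the rows. The regulator's own gene opened a run for 9 of 22 regulators and stood within the first 10 rows in 13 of 23 cases. The gene bx7 stood earliest for MYBR3, in row 14 of 1082, and for bHLH47 it stood in row 139 of 2874. Over its 16 rows it stood at a median of 27.7% down the run, from 1.29% to 65.8%. The P450 gene bx4 stood at 6.95% for HB6, 11.1% for Zm00001d032024 and 20.4% for WRKY107. The glucosyltransferase gene bx8 stood between 25.3% and 69.1% in its 10 rows. Of all 49 rows of the benzoxazinoid genes, 35 stood in the first 50% of their run. Of these 35, 13 were rows of bx7, and both rows of bx8 for G2 were counted. For bx6 only 2 of 5 rows stood there, with a median of 57.1% down the run. Rows of the same gene or regulator are not separate observations.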
